A study of Homo sapiens with 6 samples.

Results

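The transcripts of 10 genes, out of 16330 in the deposited tables, were described in HN12 cells. HN12 is a human line from a head and neck squamous cell carcinoma. The 10 genes encode feedback regulators of the ERK pathway and, in IER3 and PHLDA1, other products induced by ERK. The members were set by symbol as DUSP1, DUSP4, DUSP5, DUSP6, SPRY2, SPRY4, SPRED1, SPRED2, IER3 and PHLDA1, and all 10 were found in both tables. The Control group holds 3 libraries of HN12 cells given the solvent DMSO, and the CPI-613 group holds 3 libraries of the same line given CPI-613 in place of DMSO alone, in each case over 24 h. Cells of all 6 libraries were kept in DMEM with fetal bovine serum, penicillin and streptomycin, so serum growth factors were present in both groups. CPI-613, also called devimistat, is a lipoate analogue made to inhibit pyruvate dehydrogenase and 2-oxoglutarate dehydrogenase in mitochondria. Its dose is not given in the sources used here, and a single cell line was studied.

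ERK is the last kinase of a relay in which growth factor receptors activate RAS, then RAF, then MEK, then ERK. Active ERK induces genes whose products switch the relay off again, and the amount of these transcripts is widely used as a readout of ERK output. Dual-specificity phosphatases (DUSPs) remove the activating phosphates from ERK and its relatives, Sprouty (SPRY) and SPRED proteins act higher up, between the receptor and RAF, and the EGF receptor that feeds this relay is abundant in squamous carcinomas. ERK phosphorylation was not measured here.

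The estimated counts summed to 11531942 to 12508570 in the Control libraries and to 13458530 to 15486513 in the CPI-613 libraries. The labels do not say whether replicates were separate cultures, so all p-values refer to variation between the 6 libraries, part of which may be technical. All 7 epithelial markers examined, among them KRT5, KRT14, TP63 and EPCAM, reached at least 1 FPKM (counts divided by transcript length and by library total). Their summed level was 3719 to 5984 FPKM in Control and 2084 to 4643 FPKM with CPI-613, so the groups overlapped in the sum. KRT5, a keratin of basal cells and the only 1 of the 7 whose groups did not overlap, measured 2104, 2021 and 2568 CPM in Control and 459, 874 and 1553 CPM with CPI-613. It was not called (log2 fold change -1.21, SE 0.42; adjusted p = 0.226 by edgeR with Benjamini-Hochberg) but was lower when GC- and length-adjusted (-1.45, SE 0.27, adjusted p = 0.0139), and its part in the members' results was not tested. Of 6 fibroblast markers 3 were in the table and summed to 5.71 to 7.96 FPKM over the 6 libraries, nearly all of it COL1A1. Of 6 leukocyte markers 4 were in the table and summed to 28.4 to 46 FPKM, nearly all of it CD68, while PTPRC stayed at or under 0.07 FPKM. The 5 endothelial markers summed to at most 0.67 FPKM. The markers COL1A2, LUM, DCN and CD3E were not analysed here.

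With CPI-613, 5 of the 10 members rose and none fell. They were DUSP5 and DUSP6 among the phosphatases, SPRY4 among the Sprouty proteins, and both IER3 and PHLDA1. By the same rule 1.94% of all 12671 genes tested were called higher and 1.24% lower (p under 0.05 after Benjamini-Hochberg adjustment, quasi-likelihood test of edgeR), 3.18% in either direction. At an unadjusted p under 0.05, 8 members were higher, against 8.45% of all genes, and 0 lower. DESeq2 called 7 members higher and 0 lower, where it called 3.87% of all genes higher and 3.17% lower. The members' median log2 fold change was 1.19, against 0.02 over all genes tested. The members, and the gene lists below, were chosen with earlier results of these data known. Their counts and medians beside those of all genes are therefore a description and not a test. In 9 of the 10 members every CPI-613 library lay above every Control library, as it did in 11.8% of all genes tested. SPRED1 was the exception, and 0 members had every CPI-613 library below, where 9.17% of all genes did. In bulk RNA a lower or higher share of cells with a transcript and less or more transcript per cell cannot be told apart.

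**Figure D1:**
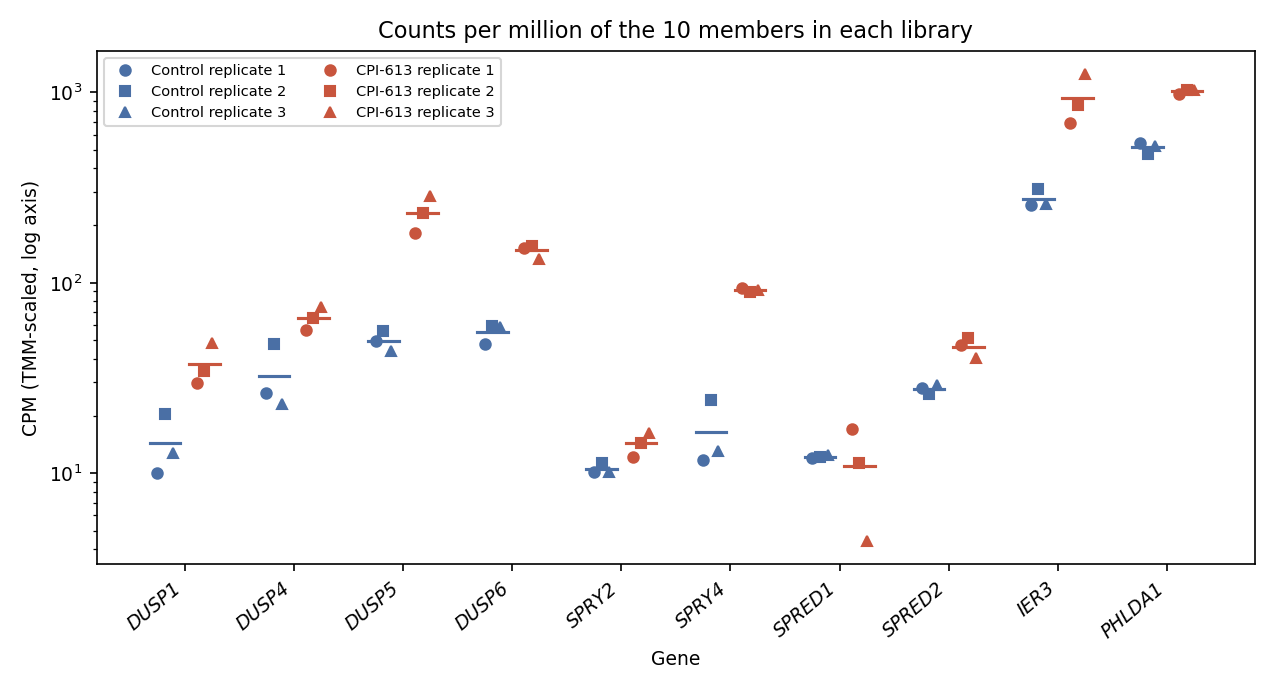
Level in CPM (counts divided by the TMM-scaled library size, log axis) of each member in each library, with circles, squares and triangles for replicates 1, 2 and 3, Control in blue, CPI-613 in red, and a short line at each group's mean. The 2 colours overlap in SPRED1 alone, and SPRED1 has the widest spread among the CPI-613 libraries, from 4.42 to 17.0 CPM.

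The calls depended on single libraries. None of the 10 members was called by edgeR without Control replicate 1, Control replicate 3 or CPI-613 replicate 2, where 0, 0 and 7 of all genes were called. In those 3 fits 7, 8 and 8 members were higher at an unadjusted p under 0.05, and DESeq2 called 5 members higher in each. DESeq2 then called 245, 246 and 223 of all genes higher and 159, 158 and 189 lower. Among the members, the log2 ratio of CPI-613 replicate 3 to replicate 1 ran from -1.95 for SPRED1 (38.9% GC) to 0.85 for IER3 (58.5% GC). Between them it did not follow GC content throughout, with 0.07 for PHLDA1 (44.3%) and -0.19 for DUSP6 (46.7%). The trend over all genes is not given here, and GC content and length were adjusted for together. With the trends on GC content and transcript length taken out of each library (GC- and length-adjusted below), 7 members were called higher, DUSP1 and SPRED2 in addition to the 5, and 0 lower. The same fit called 6.68% of all genes higher and 4.96% lower. Scaling by library size only called the same number of members, 5, while it moved the share of higher calls among all called genes from 61% to 46.9% and the median of all genes from 0.02 to -0.17.

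**Figure D2:**
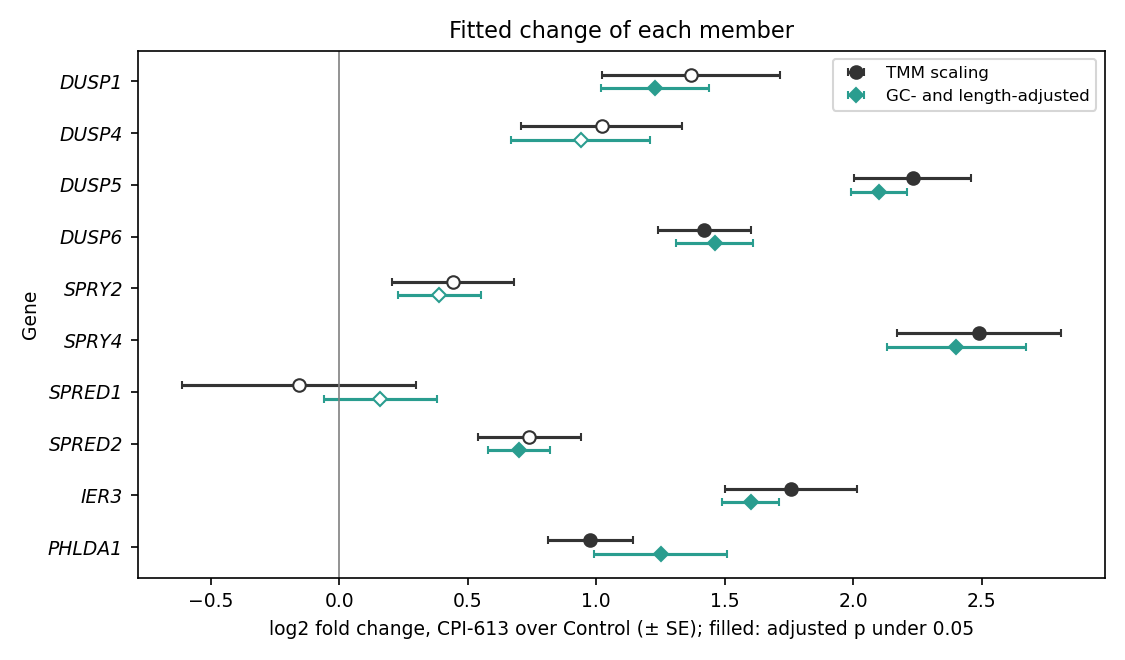
Log2 fold change of CPI-613 over Control with its standard error for each member, by TMM scaling (circles) and GC- and length-adjusted (diamonds), filled where the adjusted p is under 0.05. SPRY4 and DUSP5 have the largest changes at 2.49 and 2.23, and SPRED1 lies on either side of 0 at -0.16 and 0.16.

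Among the phosphatases DUSP5 rose most. DUSP5 (gene ID 1847) is an inducible nuclear phosphatase that acts on ERK and not on the other MAP kinases, and it lies on chromosome 10 at 110497907 to 110511533 (GRCh38). It measured 49.5, 56.1 and 43.6 CPM in Control replicates 1 to 3 and 183, 233 and 285 CPM in CPI-613 replicates 1 to 3. Even the lowest CPI-613 library was more than 3 times the highest Control library. The mean went from 49.7 ± 6.23 to 233.5 ± 50.7 CPM (SD, n = 3), a fitted 4.69-fold rise (log2 2.23, SE 0.23; adjusted p = 0.0072 by edgeR with Benjamini-Hochberg, range 9.03e-18 to 0.072 in 29 alternatives). In the main edgeR fit DUSP5 was the only member still called at an adjusted p under 0.01, where 54 of all genes were called higher. When GC- and length-adjusted, DUSP1, DUSP6, SPRY4 and IER3 were under 0.01 as well, and by DESeq2 these and PHLDA1. Only 0.623% of the genes tested had a larger log2 fold change.

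DUSP6 (gene ID 1848), a cytoplasmic ERK-specific phosphatase, lies on chromosome 12 at 89347235 to 89352501. It measured 47.4, 59.6 and 58.4 CPM in the 3 Control libraries and 153, 157 and 134 CPM in the 3 CPI-613 libraries. The groups did not overlap, and CPI-613 replicate 3, which was the highest for DUSP5, was the lowest of its group for DUSP6. The mean rose from 55.2 ± 6.73 to 148 ± 12.1 CPM (SD, n = 3), with a log2 fold change of 1.42 (SE 0.18; adjusted p = 0.0116 by edgeR with Benjamini-Hochberg, range 3.4e-09 to 0.109 in 29 alternatives). The RefSeq annotation places a readthrough gene, POC1B-DUSP6, over the same span, so reads of the pair cannot be told apart here. The 250 bases before the annotated start of DUSP6 are shown because it is the member most often read as an ERK output. They lie at chr12:89352502-89352751 on the minus strand of GRCh38.p14 (RefSeq) and are printed 5′ to 3′, in lower case throughout since no motif searched had a match in them.
DUSP6: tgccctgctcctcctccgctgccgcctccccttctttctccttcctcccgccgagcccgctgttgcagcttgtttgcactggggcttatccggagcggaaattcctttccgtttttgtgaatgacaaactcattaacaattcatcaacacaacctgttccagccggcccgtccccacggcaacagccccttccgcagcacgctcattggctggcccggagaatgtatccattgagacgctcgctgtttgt

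DUSP1 (gene ID 1843) encodes a nuclear phosphatase that acts on p38 and JNK as well as ERK and is a classical serum- and stress-induced early gene, on chromosome 5 at 172768096 to 172771195. It measured 10.0, 20.6 and 12.8 CPM in Control and 29.7, 34.2 and 48.0 CPM with CPI-613. Control replicate 2 was the highest Control library and still lay under all 3 CPI-613 libraries. The means were 14.5 ± 5.475 and 37.3 ± 9.54 CPM (SD, n = 3). At a log2 fold change of 1.37 (SE 0.35) it was not called (adjusted p = 0.0991 by edgeR with Benjamini-Hochberg, range 0.000259 to 0.422 in 29 alternatives), and at the GC- and length-adjusted 1.23 (SE 0.21) it was (adjusted p = 0.00975 by edgeR with Benjamini-Hochberg). DESeq2 also called it. The bases before its start, at chr5:172771196-172771445 on the minus strand, hold the only match among the members' windows to the cAMP response element TGACGTCA, a palindrome bound by CREB and ATF factors. It begins 125 bases before the start and is in capitals.
DUSP1: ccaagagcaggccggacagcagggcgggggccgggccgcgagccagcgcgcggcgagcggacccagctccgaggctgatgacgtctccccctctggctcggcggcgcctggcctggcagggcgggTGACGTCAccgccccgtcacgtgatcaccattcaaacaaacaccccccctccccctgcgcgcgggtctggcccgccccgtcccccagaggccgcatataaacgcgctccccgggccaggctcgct

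DUSP4 (gene ID 1846), a nuclear phosphatase of ERK and JNK, lies on chromosome 8 at 29333064 to 29350684. It measured 26.4, 47.45 and 23.1 CPM in Control and 56.8, 65.2 and 74.8 CPM with CPI-613. As with DUSP1, Control replicate 2 was nearest to the CPI-613 libraries. The means were 32.3 ± 13.2 and 65.6 ± 9.01 CPM (SD, n = 3), and the log2 fold change of 1.02 (SE 0.31) was not called (adjusted p = 0.168 by edgeR with Benjamini-Hochberg). It was not called when GC- and length-adjusted either (0.94, SE 0.27; adjusted p = 0.0668 by edgeR with Benjamini-Hochberg).

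On the scale per length, which allows levels of different genes to be set side by side, the 4 phosphatases together measured 51.8, 65.0 and 52.0 FPKM in Control replicates 1 to 3. They measured 161, 169 and 173 FPKM in CPI-613 replicates 1 to 3. The sum was thus higher in each CPI-613 library than in any Control library, at 168 ± 6.17 against 56.2 ± 7.56 FPKM (SD, n = 3). DUSP5 made up 39.6% to 47.3% of the sum in Control and 52.9% to 61.1% with CPI-613. The share of DUSP4 was 8.97% to 14.1% in Control and lower, 6.75% to 6.90%, with CPI-613. The shares of DUSP1 and DUSP6 overlapped between the groups. These shares are free of library scaling and were not tested.

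**Figure D3:**
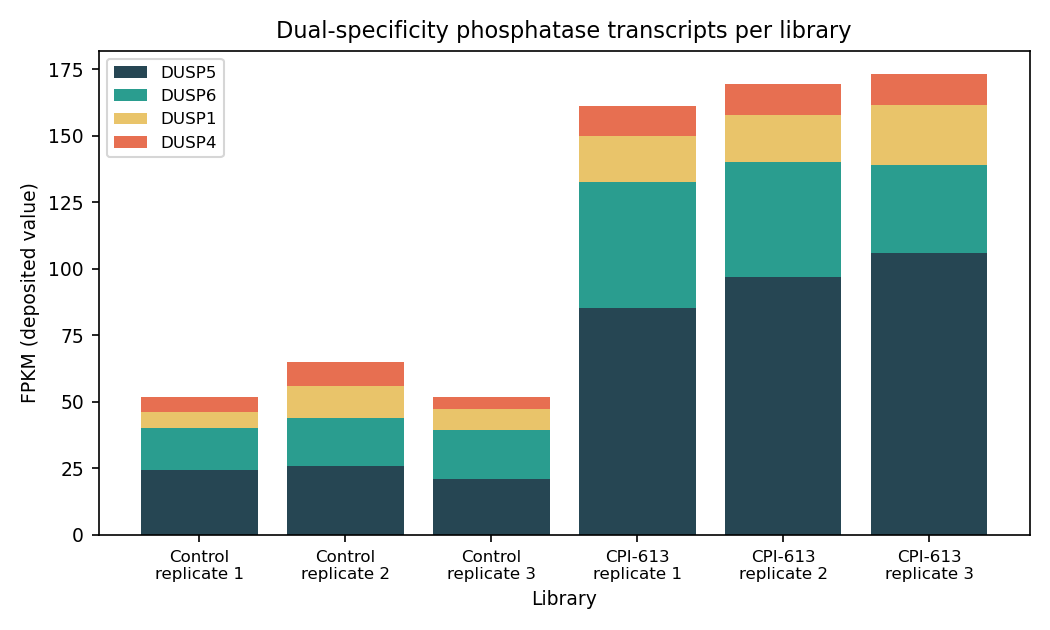
Deposited FPKM of DUSP5, DUSP6, DUSP1 and DUSP4 stacked for each library, with Control on the left and CPI-613 on the right. The columns reach 51.8 to 65.0 FPKM in Control and 161 to 173 FPKM with CPI-613, and the DUSP5 block grows from 21.0 to 25.8 FPKM to 85.3 to 105.9 FPKM.

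The DUSP5 transcript also stood higher relative to the DUSP6 transcript with CPI-613. Protein was not measured, and other phosphatases are not part of this ratio. The ratio of DUSP5 to DUSP6 in FPKM was 1.575, 1.42 and 1.126 in Control and 1.806, 2.239 and 3.201 with CPI-613, so the groups did not overlap. The spread among the CPI-613 libraries was wide. In CPI-613 replicate 3 against replicate 1 the log2 ratio of CPM was 0.64 for DUSP5, whose transcript has 55.9% GC, and -0.19 for DUSP6, whose transcript has 46.7% GC. The part of GC content in the FPKM ratio was not tested.

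Sprouty proteins are membrane-bound inhibitors of RAS and RAF activation by receptor tyrosine kinases. SPRY4 (gene ID 81848), on chromosome 5 at 142310430 to 142325021, had the largest change of all members. It measured 11.7, 24.4 and 13.1 CPM in Control and 94.1, 89.6 and 92.0 CPM with CPI-613. The CPI-613 libraries were close to each other, and each was more than 3 times the highest Control library. The mean rose from 16.4 ± 6.97 to 91.9 ± 2.28 CPM (SD, n = 3), a fitted 5.61-fold change (log2 2.49, SE 0.32; adjusted p = 0.0116 by edgeR with Benjamini-Hochberg, range 1.45e-23 to 0.0905 in 29 alternatives). A noncoding RNA, SPRY4-IT1, is annotated within its span, and whether strand was used in counting is not given. The sequence before one of its starts, which lies inside the annotated span, at chr5:142324248-142324497 on the minus strand, is shown for its match to the EGR motif GCGNGGGCG, on the opposite strand and in capitals. The match begins 195 bases before the start. The motif was also in a window of SPRY2 and in 9.43% of all windows searched. Whether EGR factors act on SPRY4 was not tested.
SPRY4: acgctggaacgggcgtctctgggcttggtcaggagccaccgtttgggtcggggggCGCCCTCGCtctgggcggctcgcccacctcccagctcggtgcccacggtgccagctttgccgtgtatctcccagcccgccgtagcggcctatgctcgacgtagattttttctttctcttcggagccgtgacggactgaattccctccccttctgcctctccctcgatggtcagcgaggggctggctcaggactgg

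SPRY2 (gene ID 10253), the other Sprouty member and on chromosome 13 at 80335976 to 80341126, differed little between the groups. It measured 10.2, 11.3 and 10.2 CPM in Control and 12.2, 14.45 and 16.35 CPM with CPI-613. The groups did not overlap, yet the highest Control and the lowest CPI-613 library were less than 1 CPM apart. The log2 fold change was 0.44 (SE 0.24; adjusted p = 0.493 by edgeR with Benjamini-Hochberg) and it was called in 0 of 29 alternatives. In FPKM the ratio of SPRY4 to SPRY2 went from 0.499, 0.949 and 0.561 in Control to 3.345, 2.686 and 2.434 with CPI-613. SPRY4 was thus below SPRY2 in each Control library and above it in each CPI-613 library.

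SPRED proteins bind neurofibromin, the RAS-inactivating protein encoded by NF1, and bring it to the membrane. SPRED2 (gene ID 200734), on chromosome 2 at 65307175 to 65432599, measured 27.9, 26.1 and 28.95 CPM in Control and 47.1, 51.2 and 40.2 CPM with CPI-613. The groups did not overlap. The log2 fold change of 0.74 (SE 0.20) was not called (adjusted p = 0.122 by edgeR with Benjamini-Hochberg). The GC- and length-adjusted 0.70 (SE 0.12) was called (adjusted p = 0.0114 by edgeR with Benjamini-Hochberg, range 0.00543 to 0.557 in 29 alternatives).

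SPRED1 (gene ID 161742), on chromosome 15 at 38252836 to 38357249, was the member whose groups overlapped. It measured 11.99, 12.2 and 12.45 CPM in the Control libraries and 17.0, 11.4 and 4.42 CPM in the CPI-613 libraries. The Control libraries were within 1 CPM of each other, while the CPI-613 libraries lay on both sides of them. The log2 fold change of -0.16 (SE 0.46; adjusted p = 0.905 by edgeR with Benjamini-Hochberg) changed sign without CPI-613 replicate 3, at 0.22 (SE 0.25), and in the GC- and length-adjusted fit, at 0.16 (SE 0.22). SPRED1 had 57 counts in that library and 148 to 239 in the other 5. Its transcript has the lowest GC content of the members, 38.9%. NF1 itself, named after its value was seen, measured 134, 64.4 and 144.5 CPM in Control and 155, 66.4 and 24.1 CPM with CPI-613, with the CPI-613 libraries in the same order.

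**Figure D4:**
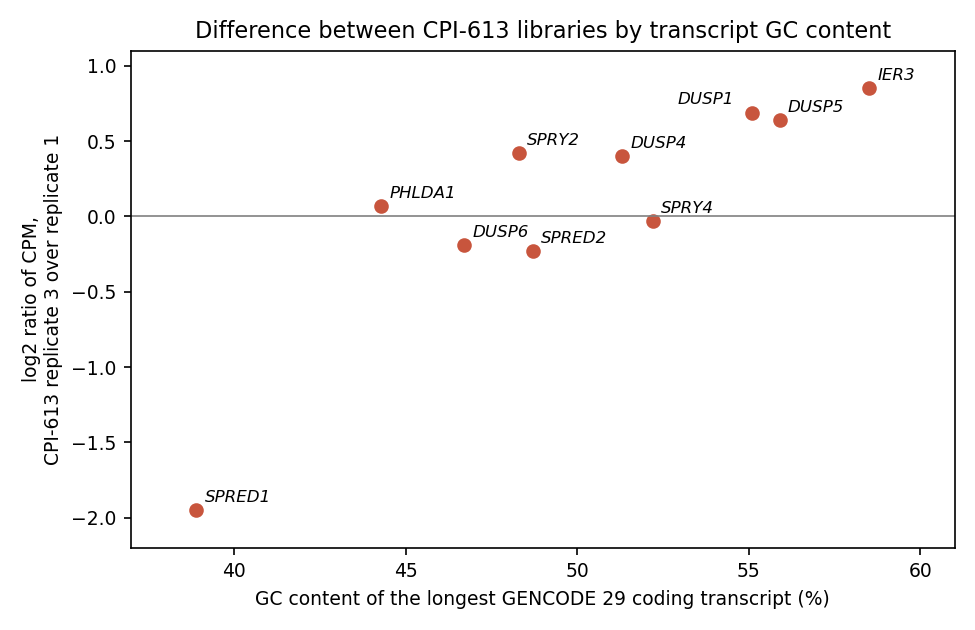
Log2 ratio of CPM in CPI-613 replicate 3 over CPI-613 replicate 1 for each member, against the GC content of its longest GENCODE 29 coding transcript in percent. SPRED1 lies at 38.9% and -1.95, and IER3 at 58.5% and 0.85, with the other 8 members between them in GC content and in ratio.

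IER3 and PHLDA1 are further genes that ERK induces. IER3 (gene ID 8870), also known as IEX-1, is a short-lived survival protein and ERK substrate encoded within the major histocompatibility complex on chromosome 6, at 30743199 to 30744547. It measured 256.5, 311.5 and 259 CPM in Control and 692, 861 and 1246 CPM with CPI-613. Each CPI-613 library was more than 2 times above each Control library. The mean rose from 276 ± 30.9 to 933 ± 284 CPM (SD, n = 3), a log2 fold change of 1.76 (SE 0.26; adjusted p = 0.0174 by edgeR with Benjamini-Hochberg, range 1.22e-10 to 0.131 in 29 alternatives). The antisense RNA IER3-AS1 overlaps it and was not analysed here.

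PHLDA1 (gene ID 22822) encodes a protein with a pleckstrin homology-like domain and lies on chromosome 12 at 76025447 to 76031776, under an annotated antisense RNA, PHLDA1-AS1. It measured 543, 476 and 523 CPM in Control and 978, 1027 and 1029 CPM with CPI-613. Both groups were tight. The mean rose from 514 ± 34.6 to 1012 ± 28.7 CPM (SD, n = 3). The log2 fold change of 0.98 (SE 0.16) was the smallest of the 5 called members (adjusted p = 0.0272 by edgeR with Benjamini-Hochberg, range 1.18e-06 to 0.205 in 29 alternatives). The call also ended without Control replicate 2 (adjusted p = 0.0639 by edgeR with Benjamini-Hochberg).

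Per length, the order of the members in Control was IER3 at 295 ± 22.1 FPKM, PHLDA1 at 97.1 ± 9.98, DUSP5 at 23.7 ± 2.48 and DUSP6 at 17.4 ± 1.65 FPKM. DUSP1 followed at 8.64 ± 2.94 FPKM, SPRED2 at 7.45 ± 0.311, DUSP4 at 6.44 ± 2.39, SPRY2 at 5.37 ± 0.193, SPRY4 at 3.61 ± 1.41 and SPRED1 at 1.76 ± 0.060 FPKM (SD, n = 3). Neighbours from DUSP1 down to SPRY4 overlapped over the 3 Control libraries, and the others did not. With CPI-613 the first 5 places were the same and SPRY4 stood sixth instead of ninth, at 17.9 ± 2.25 FPKM. There it overlapped with DUSP1 at 19.3 ± 2.80 FPKM and was separate from DUSP4 at 11.4 ± 0.295 FPKM. SPRED1 was last in both groups, at 1.44 ± 0.945 FPKM with CPI-613.

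The counts table splits the members into 30 transcript entries. DUSP1, DUSP5 and PHLDA1 have a single entry each. The leading transcript of DUSP6 held 97.6% to 99.0% of its counts in Control and 95.55% to 98.45% with CPI-613, so its rise lay in that transcript. The leading transcript of SPRY4 held 75.2% to 82.1% in Control and 73.1% to 78.4% with CPI-613. That of SPRY2 held 78.7% to 78.8% in Control and 83.2% to 92.0% with CPI-613, without overlap, on 130 to 211 counts per library for the whole gene. SPRED1 was split mainly between 2 transcripts, of which the first held 43.7% to 57.4% over the 6 libraries. IER3 has 5 entries of the same transcript, 4 of them with identical counts in each library, and their sum was used. Reads shared by transcripts were divided by the authors' counter, so these shares are estimates and were not tested.

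Promoter windows from 250 bases before to 50 bases after annotated starts were found for 7 members, 10 windows in all, in the RefSeq table. They were searched on both strands for 6 motifs of factors known to act on such genes. The cAMP response element TGACGTCA was in 1 of the 10 windows, that of DUSP1 shown above, and in 1.85% of all 35116 windows. The EGR motif GCGNGGGCG was in 2 windows, of SPRY2 and SPRY4, and in 9.43% of all. The AP-1 motif TGANTCA and the ATF4 composite element TGATGNAA were each in 1 window, the same one of SPRED2, and in 7.71% and 3.62% of all. The ETS motif CCGGAAGT and the CArG box of serum response factor were in 0 of 10, and in 4.14% and 1.29% of all. A match is a string of letters only, and these windows are short.

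The libraries of a group did not rank alike for all members. Control replicate 2 was the highest Control library in 7 of the 10 members, DUSP1, DUSP4, DUSP5, DUSP6, SPRY2, SPRY4 and IER3, and in 44.2% of all genes tested. Its log2 ratio to Control replicate 1 was 1.06 for SPRY4, 1.04 for DUSP1 and 0.84 for DUSP4. CPI-613 replicate 3 was the highest of its group in 6 members and the lowest in 3, against 48.5% and 43.7% of all genes tested. The 3 in which it was lowest were DUSP6, SPRED1 and SPRED2.

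Beyond the members, none of 20 tested genes from the EGF receptor to ERK and its substrate kinases was called by edgeR, with a median log2 fold change of 0.04. Over all genes tested 3.18% were called in either direction, so a count of 0 among 20 is near that share. At an unadjusted p under 0.05 there was 1, SHC1, a receptor adaptor named after its value was seen, with means of 179 ± 23.6 and 314 ± 65.5 CPM. DESeq2 and the GC- and length-adjusted fit each called SHC1 alone, where they called 3.87% and 6.68% of all genes higher. EGFR, the EGF receptor, measured 860, 515 and 939 CPM in Control and 1109, 874 and 405 CPM with CPI-613. MAPK3, which encodes ERK1, measured 34.7 ± 3.22 and 37.5 ± 17.0 CPM (SD, n = 3). Their log2 fold changes were 0.05 (SE 0.40) for EGFR and 0.11 (SE 0.34) for MAPK3.

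Among 22 further genes known to be induced by ERK, 10 rose, 12 had no call and 0 fell by edgeR (1 lower at an unadjusted p under 0.05, 0 lower by DESeq2). In the same edgeR test 1.94% of all genes were called higher and 1.24% lower. When GC- and length-adjusted, 14 of the 22 were higher and 0 lower, against 6.68% and 4.96% of all genes. The median log2 fold change of the 22 by edgeR without that adjustment was 1.20. The largest were EGR3, EGR2 and EGR1, early transcription factors, at 5.45, 4.06 and 2.63 on the log2 scale, HBEGF and AREG, ligands of the EGF receptor, at 3.02 and 2.83, and TRIB1, a pseudokinase, at 2.15. EGR3 had 7, 0 and 5 counts in the Control libraries, so its fold change rests on few reads. EGR1 measured 14.1, 33.2 and 32.8 CPM in Control and 154, 166 and 174.5 CPM with CPI-613. TRIB1 measured 8.88 ± 1.21 and 39.5 ± 2.79 CPM. The direction was not shared by all. EPHA4, an ephrin receptor named after its value was seen, was the gene lower at an unadjusted p under 0.05. It measured 1.49, 0.932 and 1.22 CPM in Control and 0.570, 0.384 and 0.465 CPM with CPI-613, on 5 to 19 counts per library (log2 fold change -1.34, SE 0.36; adjusted p = 0.121 by edgeR with Benjamini-Hochberg). CCND1, which encodes cyclin D1 and was named after its value was seen, measured 354 ± 57.6 and 282 ± 28.7 CPM, with every CPI-613 library below every Control library and no call (adjusted p = 0.549 by edgeR with Benjamini-Hochberg). Without Control replicate 1, Control replicate 3 or CPI-613 replicate 2 edgeR without the GC and length adjustment called at most 7 genes of any kind, as given above.

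**Figure D5:**
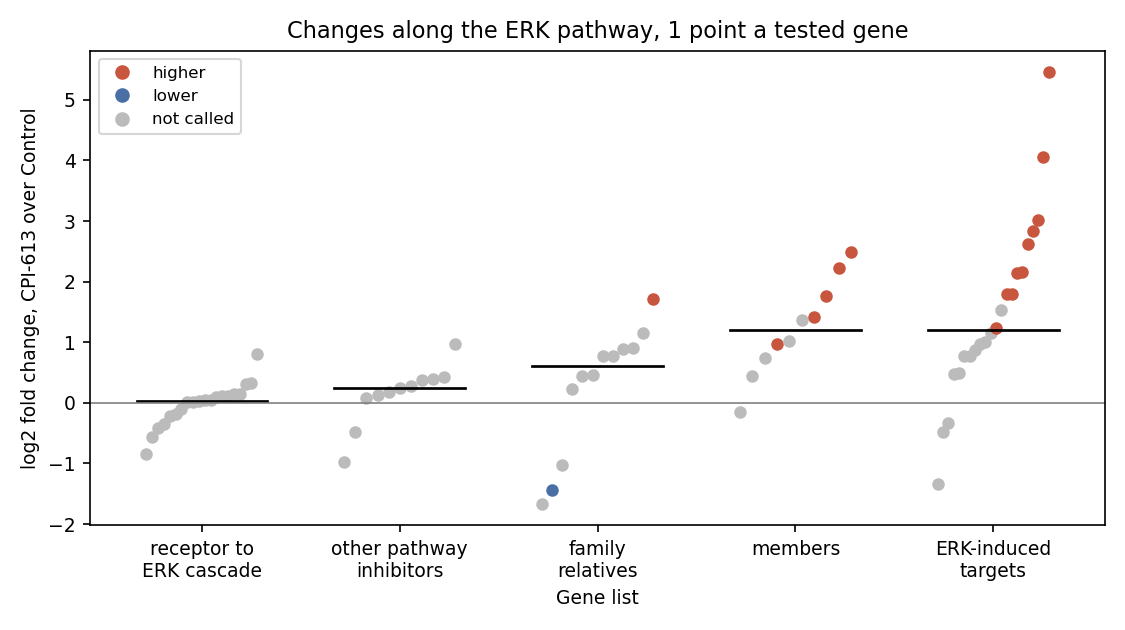
Log2 fold change of CPI-613 over Control for each tested gene of 5 lists, in order of size within a list, red where called higher, blue where called lower and grey where not called, with a line at the median. The medians are 0.04 for the receptor to ERK cascade, 0.25 for other inhibitors, 0.62 for family relatives, 1.19 for the members and 1.20 for ERK-induced targets.

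Close relatives of the members went both ways. Of 12 tested, 1 rose, 1 fell and 10 had no call by edgeR. In that test 1.94% of all genes were called higher and 1.24% lower. PHLDA2, an imprinted relative of PHLDA1, rose from 45.8 ± 13.4 to 150 ± 46.2 CPM (log2 fold change 1.71, SE 0.31; adjusted p = 0.0344 by edgeR with Benjamini-Hochberg). SPRY1, another Sprouty gene, fell from 7.92 ± 1.82 to 2.92 ± 0.213 CPM (SD, n = 3), a log2 fold change of -1.43 (SE 0.28; adjusted p = 0.0441 by edgeR with Benjamini-Hochberg), and is thus opposite in sign to SPRY4. It measured 7.84, 6.13 and 9.78 CPM in Control and 3.14, 2.92 and 2.71 CPM with CPI-613. DUSP10, a phosphatase of p38 and JNK, and DUSP9, an ERK phosphatase, were named after their values were seen. They measured 30.3 ± 2.31 and 14.8 ± 0.639 CPM and 12.1 ± 0.823 and 3.80 ± 1.75 CPM, with no call at adjusted p of 0.051 and 0.073 by edgeR, and with every CPI-613 library below every Control library. IER2, an early response gene related to IER3 by name and likewise picked by its value, measured 155 ± 33.3 and 346 ± 93.4 CPM, with every CPI-613 library above every Control library and no call at an adjusted p of 0.0716 by edgeR. DESeq2 called IER2 and PHLDA2 higher and DUSP9, DUSP10 and SPRY1 lower, against 3.87% and 3.17% of all genes. When GC- and length-adjusted 4 relatives were higher, PHLDA2, IER2, DUSP7 and SPRY3, and 3 lower, DUSP9, DUSP10 and SPRY1. The same fit called 6.68% of all genes higher and 4.96% lower.

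Other inhibitors of the pathway gave 0 calls among 11 tested by edgeR, and their median log2 fold change was 0.25. That count too is near the share over all genes, 3.18% in either direction. Unadjusted p-values were under 0.05 for 1 in each direction, ERRFI1 higher and DAB2IP lower. When GC- and length-adjusted 1 was called higher and 1 lower, the same genes, against 6.68% and 4.96% of all genes. ERRFI1, a cytoplasmic inhibitor of EGF receptor kinase activity, measured 173, 84.5 and 178 CPM in Control and 368, 301 and 180 CPM with CPI-613, so that CPI-613 replicate 3 lay just above the highest Control library. Its log2 fold change was 0.96 (SE 0.37; adjusted p = 0.284 by edgeR with Benjamini-Hochberg). When GC- and length-adjusted it was 1.16 (SE 0.22; adjusted p = 0.0135 by edgeR with Benjamini-Hochberg). PEBP1, a RAF-binding inhibitor, measured 158 ± 34.5 and 187.5 ± 67.6 CPM (SD, n = 3). DESeq2 called 1 of the 11, DAB2IP, a RAS GTPase-activating protein named after its value was seen, with 101 ± 4.71 and 51.3 ± 15.3 CPM. The GC- and length-adjusted log2 fold change of DAB2IP was -1.08 (SE 0.14; adjusted p = 0.00332 by edgeR with Benjamini-Hochberg).

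Among 10641 other genes with a mean of at least 5 CPM, those whose levels lay nearest to DUSP6 over the 6 libraries were GARS1 and MTHFD2, with a root mean square difference of 0.083 and 0.108 in log2 CPM centred on the Control mean. GARS1, a glycyl-tRNA synthetase, measured 163 ± 16.3 and 413 ± 37.4 CPM, and MTHFD2, a mitochondrial folate enzyme, 117 ± 13.1 and 318 ± 34.9 CPM. Nearest to SPRY4 were SERPINE2, a secreted protease inhibitor, and PSAT1, an enzyme of serine synthesis, at 0.25 and 0.251. SERPINE2 measured 32.0 ± 6.42 and 167 ± 14.3 CPM, and PSAT1 115 ± 18.5 and 590 ± 46.3 CPM (SD, n = 3).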

How the data were processed

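Per the labels' protocols, TRIzol was used to extract the RNA of 3 Control and 3 CPI-613 libraries, and a DNBSEQ instrument to read them. STAR 2.5, HTSeq, CASAVA, DESeq2, edgeR 3.16.5 and hg38 stand in the submitters' processing notes without their roles. The authors deposited estimated counts per RefSeq transcript (79031 transcripts). Their second table holds values per gene that were taken as FPKM, counts the authors divided by transcript length and library total, although the table names no unit: over 1417 genes with a single transcript the worth of 1 read followed the library totals within 0.454%. Left out were 27 transcripts, none of a member, with a date in place of a number. Genes without a symbol held 0.016% of the counts.

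Counts were summed per gene, rounded, filtered with filterByExpr (minimum count 10, total 15), and scaled by TMM. The quasi-likelihood test of edgeR 4.0.16 covered 12671 genes, with Benjamini-Hochberg adjustment at 0.05. SE is the size of the log2 fold change over the root of F. CPM use TMM-scaled library sizes. GC content and length came from GENCODE 29, matched for 99.45% of tested genes, and each library's spline trend on them (mgcv) was removed as an offset. DESeq2 1.42.0, limma 3.58.1 (voom, and log2(FPKM + 1) for genes with a mean of at least 0.5 FPKM), other scalings and filters, a replicate block and leaving out libraries were alternatives. Scripts were tested on simulated data. Named genes were the members, the called genes with the largest changes in each list (up to 6 in each direction), or the 2 most abundant where none was called, EGFR and MAPK3, and the nearest genes to DUSP6 and SPRY4. Members and lists were chosen with earlier results of these data known. Precision rests on 3 libraries per group, whose depth was 11531942 to 15486513 counts; no pair differed by as little as counting noise (chi-square per degree of freedom of at least 3.88). Protein sequences were not used here, and 1 gene under this rule is not reported here.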

Additional observations from a re-analysis of the deposited data

How the results depend on the processing

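The precision of all values is limited by 3 libraries per group. Members called higher numbered 5 in the main test and 0 were called lower under any alternative. The 5 became 1 at an adjusted p under 0.01 and 4 with the replicate block, which ended the call of PHLDA1 (edgeR, Benjamini-Hochberg adjusted p = 0.13). When a library was left out they ranged from 0 to 6 by edgeR, from 4 to 8 when GC- and length-adjusted and from 5 to 8 by DESeq2, the last chosen after seeing the data. The other scalings and filters, limma-voom and limma on FPKM called 5, DESeq2 and the GC- and length-adjusted fit 7, and the latter with the block 6. DUSP5, DUSP6, SPRY4 and IER3 were called in 26 of 29 alternatives each, PHLDA1 in 20, DUSP1 in 12, SPRED2 in 7, DUSP4 in 4, and SPRED1 and SPRY2 in 0. The sign held in 29 of 29 for each member but SPRED1, where it held in 19.

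SPRED1 turned from -0.16 to 0.16 when GC- and length-adjusted, 0.17 with the block added and -0.65 to 0.40 over all fits that left out a library. In the latter it was above 0 in the GC- and length-adjusted fits and, by edgeR (0.22) and DESeq2 (0.19), without CPI-613 replicate 3. The cause was not tested.

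Over all genes, 246 higher and 157 lower calls became 259 lower by library size only, 255 lower by limma on FPKM, 491 and 402 by DESeq2, 54 and 16 at 0.01, 109 and 82 with the replicate block, 846 and 629 when GC- and length-adjusted, and 501 and 412 with the block added. Leaving out a library gave 0 to 467 higher and 0 to 438 lower, 355 to 1524 and 258 to 1117 when GC- and length-adjusted, and 223 to 866 and 158 to 1595 by DESeq2. The replicate numbers were not taken as pairs, since the deviations of same-numbered libraries correlated at 0.46, -0.1 and -0.61, and not every library correlated best with its own number. Leaving out transcripts with under 10 counts over all libraries changed the entries of SPRY4 alone, from 6 to 5. Its leading transcript's mean share with CPI-613 went from 76.13% to 76.32%, within 1 SD. The shares of the other members could not move, so this says nothing about their stability.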
